A study of Mus musculus with 21 samples.

Results

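Cycling melanoma (MM) cells were described in the 4 libraries of MM cells sorted from lung metastases and primary tumors of mice. They were chosen by measured values. A cell counted as a melanoma cell when the pigment genes Pmel, Dct, Mlana and Tyrp1 together held at least 0.5% of its unique molecular identifiers (UMIs, 1 for each captured RNA molecule), and as cycling when at least 2 of Mki67, Top2a, Cdk1, Ccnb1 and Cenpf had a UMI. This gave 8158 cycling cells of 48257 melanoma cells, in MM libraries of 48848 cells, where the whole series holds 110283 deposited barcodes. By library there were 28 cycling cells of 257 melanoma cells in lung metastasis replicate 4, 2443 of 11286 in lung metastasis replicate 5, 3891 of 30328 in primary tumor replicate 4 and 1796 of 6386 in primary tumor replicate 5. They were compared with the 23529 melanoma cells of the same libraries that had no UMI of any of the 5 genes, called non-cycling here.

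The tumors came from the MT-ret derived fragment transplantation model, in which a ret transgene is driven by the metallothionein promoter. Fragments expanded in vivo were placed under the skin of mT/mG mice of both sexes, whose own cells all carry tdTomato, so that engrafted MM cells, processed as separate libraries, are tdTomato-. No Cre was present in the model, so host cells kept tdTomato. Primary tumors were resected at a set volume, and lung metastases grew afterwards. All MM cells thus derive from the transplanted line. The labels give no age, treatment or time for single libraries. They give lung as the tissue of all samples, so the site was taken from the disease label. By the mouse and run in the library names, replicate 5 of both sites came from mouse 17 (run 3), and replicate 4 from mice 14 and 13 (run 2). For both primary tumor libraries and lung metastasis replicate 5, the replicate number in the name differed from that of the sample title, and the library was matched through its mouse number in TME library names, so the pairing rests on these names.

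A dividing cell copies its DNA in S phase and then builds the mitotic spindle in G2 and M phase. E2F factors drive many S phase genes. Mitotic genes such as those of cyclin B, Cdc20 and the kinesins are driven later, by a complex with B-Myb and Foxm1 that acts through a short element near the start site, the cell cycle genes homology region (CHR), often beside CCAAT boxes bound by NF-Y. Of the 5 genes used here, Mki67 coats mitotic chromosomes, Top2a untangles DNA, Cdk1 and cyclin B1 (Ccnb1) form the kinase that starts mitosis, and Cenpf sits at the kinetochore.

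The letters that these factors are known to bind are shown here because several of the genes described later carry them. The sequences are RefSeq windows on GRCm38.p6, 5′ to 3′, running from 180 bases before to 30 bases after the annotated start. Capitals mark CCAAT boxes (CCAAT), the CHR (TTTGAA or TTCGAA) and E2F sites (TTTCCCGC, TTTGGCGC or TTTCGCGC), each on either strand. In Mcm5, 2 E2F sites overlap.
Cdk1 (chr10:69352883-69353092, minus strand): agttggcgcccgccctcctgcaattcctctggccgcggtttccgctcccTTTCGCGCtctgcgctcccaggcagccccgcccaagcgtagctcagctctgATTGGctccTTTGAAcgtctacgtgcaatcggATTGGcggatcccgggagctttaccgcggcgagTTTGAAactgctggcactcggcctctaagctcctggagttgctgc
Cenpf (chr1:189688057-189688266, minus strand): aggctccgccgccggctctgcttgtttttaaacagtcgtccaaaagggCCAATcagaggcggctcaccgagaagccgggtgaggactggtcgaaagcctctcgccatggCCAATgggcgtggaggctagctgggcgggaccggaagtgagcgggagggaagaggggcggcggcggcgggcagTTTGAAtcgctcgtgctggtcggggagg
Ccnb2 (chr9:70421525-70421734, minus strand): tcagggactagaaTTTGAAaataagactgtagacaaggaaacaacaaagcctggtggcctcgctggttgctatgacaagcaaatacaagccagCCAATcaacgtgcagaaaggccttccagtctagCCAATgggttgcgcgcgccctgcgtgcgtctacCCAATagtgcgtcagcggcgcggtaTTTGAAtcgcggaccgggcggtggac
Cdc20 (chr4:118437314-118437523, minus strand): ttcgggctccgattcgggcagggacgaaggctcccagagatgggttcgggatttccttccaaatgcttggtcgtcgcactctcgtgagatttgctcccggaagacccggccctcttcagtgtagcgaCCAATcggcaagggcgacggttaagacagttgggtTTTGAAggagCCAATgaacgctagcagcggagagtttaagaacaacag
Aspm (chr1:139454593-139454802, plus strand): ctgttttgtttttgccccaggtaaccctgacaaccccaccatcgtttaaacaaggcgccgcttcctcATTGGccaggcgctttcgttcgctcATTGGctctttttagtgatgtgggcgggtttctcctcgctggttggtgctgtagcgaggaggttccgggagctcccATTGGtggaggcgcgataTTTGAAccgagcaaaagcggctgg
Mcm5 (chr8:75109329-75109538, plus strand): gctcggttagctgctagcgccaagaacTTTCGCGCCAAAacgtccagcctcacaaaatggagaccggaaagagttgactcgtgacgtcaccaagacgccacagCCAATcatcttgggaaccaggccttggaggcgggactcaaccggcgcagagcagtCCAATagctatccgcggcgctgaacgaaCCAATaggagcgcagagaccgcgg
Cdk1 and Cenpf helped to choose the cells. Ccnb2, Cdc20 and Aspm stand for mitotic genes that the choice did not use, and Mcm5, a subunit of the replicative helicase, stands for the S phase. The CHR was found in the windows of all of these but Mcm5, which held E2F sites instead.

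The depth of the libraries differed. Median UMIs per cell were 3692.5 and 4002 in the lung metastasis libraries, and 1654 and 3683 in the primary tumor libraries. Primary tumor replicate 4 stood apart with 30419 barcodes, a median of 1.11% mitochondrial UMIs and 8.61% ribosomal UMIs, against 6.28 to 11.2% and 3.12 to 5.90% in the others. Lung metastasis replicate 4 held 638 cells, so its values rest on few cells. All comparisons of expression were made after each cell had been thinned to 2000 UMIs, which kept 5093 cycling and 9035 non-cycling cells. In lung metastasis replicate 4 this left 27 cycling cells, where 1 UMI in their summed counts is worth 18.5 counts per 1000000 (CPM). At most 87 barcodes were shared between any pair of MM libraries, and no doublet caller was run.

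How strongly the label held depended on how many of the 5 genes a cell showed. Of the members, 5690 had exactly 2 of the genes, 1585 had 3, 592 had 4 and 291 had all 5. The summed level of 50 other G2/M genes rose with that number in all 4 libraries. In lung metastasis replicate 5 it was 1789 CPM in cells with none of the genes, 1986 with 1, 2709 with 2, 4563 with 3, 7154 with 4 and 9548 with all 5. In primary tumor replicate 5 the same steps were 2173, 2453, 3280, 4890.5, 7165 and 9830.1 CPM. In primary tumor replicate 4 they were 2513, 2629, 3112, 4509.8, 8193 and 11771 CPM. There the median mitochondrial share also differed, at 1.11% with none of the genes and 10.9% with all 5, and its part was not tested. In lung metastasis replicate 4, with 6 to 8 members per step, they ran from 1037 CPM with none to 13750 CPM with all 5. In the 3 larger libraries cells just inside the limit of 2 genes were therefore closer to those just outside it than to the cells with 4 or 5 genes.

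**Figure D1:**
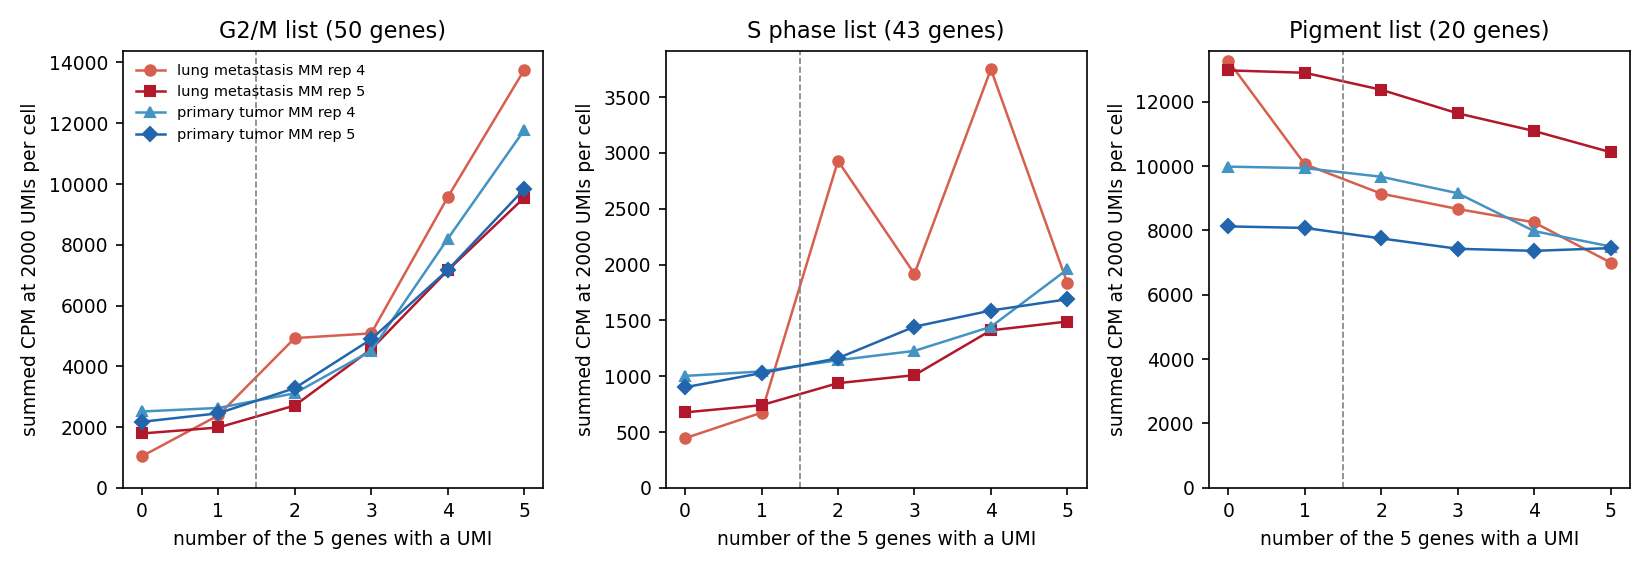
Summed CPM, after thinning to 2000 UMIs per cell, of 50 G2/M genes, 43 S phase genes and 20 pigment genes that the choice of cells did not use, against the number of the 5 cycling genes with a UMI, with 1 line per MM library. The dashed line is the limit between 1 and 2 genes. The G2/M sum ends at 9548 to 13750 CPM in cells with all 5 genes.

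The share of cells with 2 or more genes was also set beside the share that the single-gene shares of each library would give if detection of 1 gene in a cell did not depend on another. These were 12.8% observed and 12.6% from the product in primary tumor replicate 4, 28.1% and 29.5% in primary tumor replicate 5, 21.6% and 21.8% in lung metastasis replicate 5, and 10.9% and 7.57% in lung metastasis replicate 4. At 4 or 5 genes the observed share lay above the product in every library. It was 0.442% against 0.109% in primary tumor replicate 4, 5.01% against 0.833% in primary tumor replicate 5, 3.68% against 0.407% in lung metastasis replicate 5 and 5.45% against 0.0336% in lung metastasis replicate 4. At exactly 2 genes the observed share lay below the product in each library. These shares come from the 5 genes of the rule at the deposited depth, and the 883 members with 4 or 5 genes had 1.36 to 3.38 times the median UMIs of non-cycling cells, so they are a description and depth and joint expression cannot be told apart in them. Each result on expression was also run on the members with 4 or 5 genes alone, an alternative added after the data had been seen.

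The 5 genes were not shown equally by the members. Cenpf had a UMI in 67.9% and 70.4% of the cycling cells of lung metastasis replicates 4 and 5, and in 52.8% and 71.2% of those of primary tumor replicates 4 and 5. Ccnb1 was the least frequent in primary tumor replicate 4, with 25.01% of cycling cells, and was shown by 46.4%, 44.1% and 43.4% of cycling cells in lung metastasis replicates 4 and 5 and primary tumor replicate 5. Among members with exactly 2 genes of all 4 libraries together, Mki67 with Cenpf was the most frequent pair, with 1158 of 5690 cells, and Top2a with Ccnb1 the least frequent, with 268. Primary tumor replicate 4 gave 3205 of these cells. In primary tumor replicate 5 the least frequent pair was Cdk1 with Ccnb1 (47 cells), and in lung metastasis replicate 4 Mki67 with Cenpf tied with other pairs. At equal depth the level of Mki67 in cycling cells was 666.7 and 205.6 CPM in lung metastasis replicates 4 and 5, and 301.3 and 248.8 CPM in primary tumor replicates 4 and 5. These values describe the choice of the cells and were not tested. The genes lie on mouse chromosomes 7 (Mki67), 11 (Top2a), 10 (Cdk1), 13 (Ccnb1) and 1 (Cenpf), for example Ccnb1 at chr13:100778650-100786570 on the minus strand (GRCm38, GENCODE vM21).

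The pigment limit was applied to both classes, so the 4 pigment genes only describe the choice. They held a median of 1.31 to 1.80% of UMIs in cycling cells and 1.45 to 1.91% in non-cycling cells, over the 4 libraries. Among melanocyte genes that the rule did not use, Tyr was at 150.3 to 518.5 CPM, Mitf at 290.9 to 498.4 CPM and Sox10 at 168.1 to 252.0 CPM in the cycling cells of the 4 libraries. Near the limit, 804 members had 0.5 to under 1% of UMIs in these genes, and 52 cells that met the cycling limit had 0.25 to under 0.5% and were left out. A UMI of Ptprc, Col1a1 or Pecam1, which mark leukocytes, fibroblasts and endothelium, was present in 0 to 0.246% of cycling cells and in 0.0577 to 5.50% of non-cycling cells. The summed leukocyte list was 6.73 to 92.6 CPM in cycling and 6.12 to 266.7 CPM in non-cycling cells. Red blood cell genes were at 312.2 CPM in the non-cycling and 4.23 CPM in the cycling cells of primary tumor replicate 4, and their part in the results was not tested.

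Cycling cells carried a larger share of mitotic mRNA than non-cycling cells, and some glycolytic and pigment cell mRNAs were lower, in numbers that depended on the processing. After thinning, counts were summed per library and class, and edgeR's quasi-likelihood test with the library as a block was run on the 8 sums. With the 9 genes of the rule left out of all counts, 444 of 10624 genes tested were higher in cycling cells (4.18%) and 283 were lower (2.66%) at a Benjamini-Hochberg adjusted p below 0.05. The median log2 fold change over all genes tested was -0.04. The genes lie in the same cells whose 5 marker genes were used for the choice, and many are known to be switched on together with them, so the counts for cell cycle lists describe how far the label reaches.

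All 50 genes of the G2/M list outside the rule rose, with a median log2 fold change of 1.31, and 28 of 47 tested rose when the cycling class was limited to members with exactly 2 genes. Cdc20, which turns on the anaphase-promoting complex, was at 92.6, 110.8, 107.8 and 126.3 CPM in cycling cells of lung metastasis replicates 4 and 5 and primary tumor replicates 4 and 5. In non-cycling cells of the same libraries it was at 7.41, 34.8, 56.9 and 45.4 CPM. Every cycling value thus lay above every non-cycling value, and the log2 fold change was 1.36 ± 0.09 (SE; edgeR adjusted p = 5.83e-46). The SE here and below was derived from the F statistic of the fit and is not the spread between libraries. For Cdc20 the log2 ratios of single libraries ran from 0.91 to 3.48. Its edgeR or DESeq2 adjusted p ran up to 0.0407 over the alternatives. Ccnb2, the second B-type cyclin, was at 240.7, 143.2, 113.1 and 157.9 CPM in cycling cells and 14.8, 48.5, 57.2 and 61.0 CPM in non-cycling cells in the same order. The groups did not overlap, with a log2 fold change of 1.32 ± 0.09.

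Spindle genes had the highest median of the lists. Of 29 tested genes of kinesins, spindle and cytokinesis, 27 rose and none fell, with a median log2 fold change of 1.58. Aspm, which gathers the spindle poles, was at 111.1, 34.6, 33.8 and 40.6 CPM in cycling cells and 0, 4.78, 11.6 and 6.58 CPM in non-cycling cells, a log2 fold change of 2.41 ± 0.17. Ect2, the exchange factor that starts cytokinesis, rose by 2.30 ± 0.17 on the log2 scale, and the motor Kif23 by 2.29 ± 0.17. Of 32 kinetochore and checkpoint genes tested, 28 rose. Knl1, the scaffold of the outer kinetochore, was at 92.6, 52.5, 67.7 and 56.7 CPM in cycling cells against 0, 7.07, 11.03 and 8.62 CPM, a log2 fold change of 2.72 ± 0.14. The motor Cenpe rose by 2.23 ± 0.12. Condensin and cohesin genes rose in 13 of 18 cases, among them the condensin subunits Smc2 (1.66 ± 0.09) and Ncapd2 (1.57 ± 0.16). Of 16 genes of the anaphase-promoting complex and its partners, 5 rose, Cdc20 and the ubiquitin-conjugating enzyme Ube2c (0.87 ± 0.08) among them. By DESeq2, Cenpe, Smc2 and Ube2c lost the call. Ube2c also lost it without thinning and in members with exactly 2 genes.

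**Figure D2:**
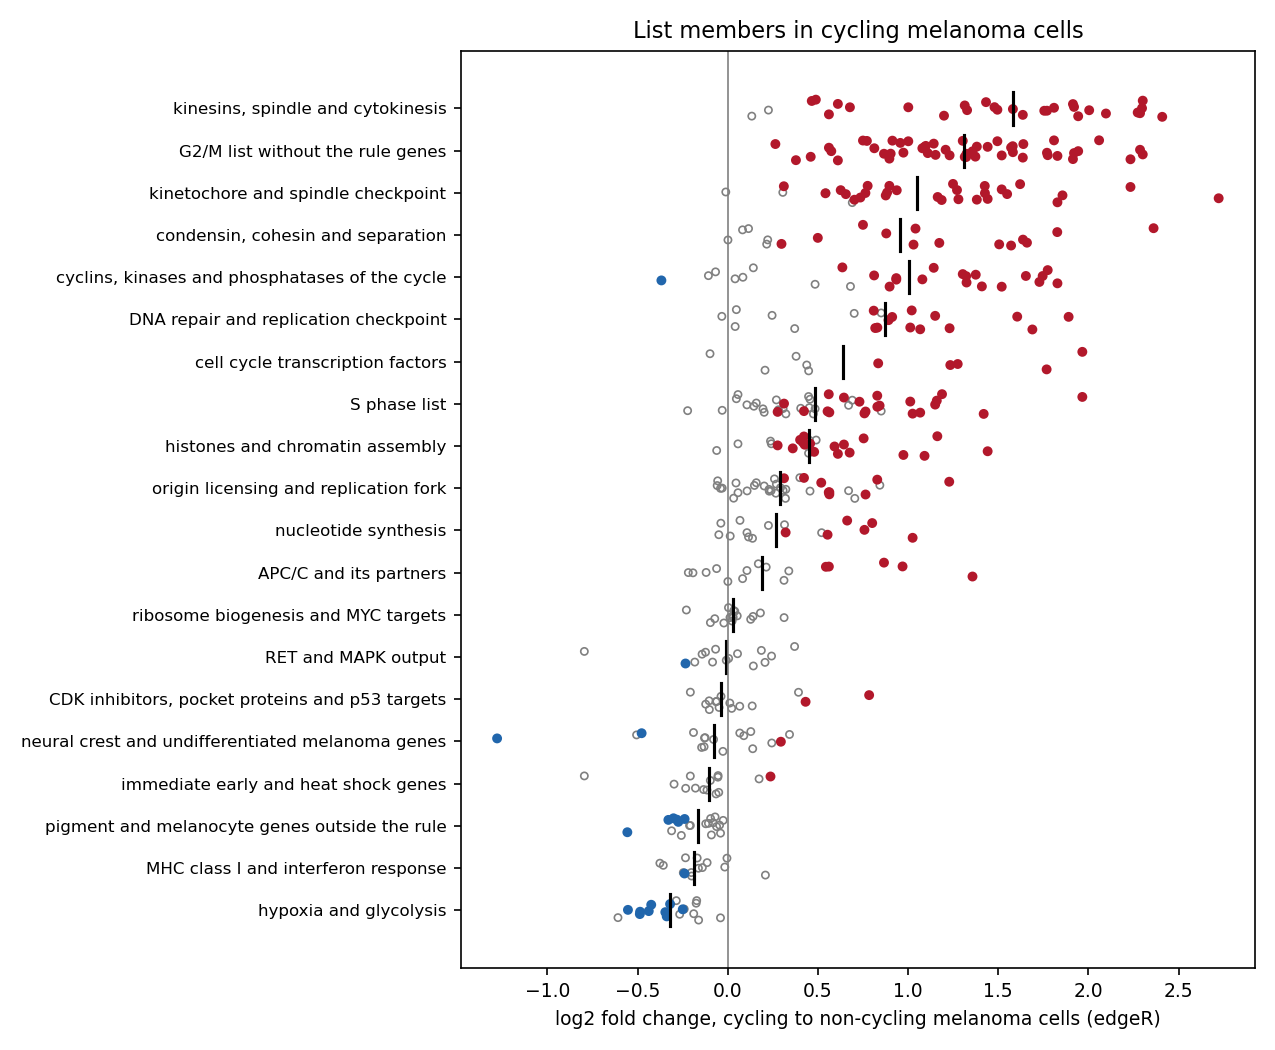
Log2 fold change from non-cycling to cycling melanoma cells for each tested member of 20 gene lists, after thinning to 2000 UMIs per cell (edgeR, 4 libraries). Filled points passed an adjusted p of 0.05 (red higher, blue lower), open points did not, and the black bar is the median of the list. The medians run from 1.58 for kinesins to -0.32 for hypoxia and glycolysis.

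Of 43 S phase genes tested, 21 rose, 22 did not pass and none fell, with a median log2 fold change of 0.48. Atad2, a chromatin ATPase of replicating cells, was at 129.6, 52.1, 64.5 and 76.6 CPM in cycling cells and at 18.5, 22.5, 35.2 and 27.7 CPM in non-cycling cells, a log2 fold change of 1.16 ± 0.11. Rrm2, the subunit that limits deoxynucleotide supply, was at 92.6, 29.9, 18.5 and 33.3 CPM against 0, 11.9, 17.3 and 14.3 CPM, a log2 fold change of 1.03 ± 0.15. In primary tumor replicate 4 its levels in both classes were nearly the same. Origin licensing and replication fork genes rose in 9 of 35 cases, nucleotide synthesis genes in 6 of 16, histone and chromatin assembly genes in 17 of 25, and DNA repair and replication checkpoint genes in 13 of 20, with none falling in these 4 lists. Cenpa, the histone of the centromere, rose by 1.44 ± 0.08 and Hmgb2 by 1.09 ± 0.07 on the log2 scale. The S phase count fell to 10 without lung metastasis replicate 5 and to 11 without primary tumor replicate 5. Rrm2 and Hmgb2 lost the call by DESeq2 and without thinning.

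The regulators of the cycle did not move as a block. Of 26 cyclins, kinases and phosphatases, 18 rose and 1 fell, with a median log2 fold change of 1.01. Ccna2, the cyclin of S and G2 phase, was at 166.7, 50.4, 43.9 and 63.2 CPM in cycling cells and 0, 11.5, 26.5 and 15.2 CPM in non-cycling cells, a log2 fold change of 1.73 ± 0.12. Plk1, a mitotic kinase, rose by 1.65 ± 0.14 and Ccnf by 1.75 ± 0.27. Ccna2 lost the call by DESeq2 and without thinning, and Plk1 by DESeq2. The cyclins of G1 phase are given one by one. Ccnd1 was at 981.5, 490.7, 557.6 and 530.4 CPM in cycling and 1096, 425.6, 447.8 and 420.6 CPM in non-cycling cells, and did not pass (log2 fold change 0.14 ± 0.08, adjusted p = 0.321). Ccnd3 (-0.07 ± 0.09), Ccne1 (0.68 ± 0.23, adjusted p = 0.0519) and Ccne2 (0.48 ± 0.28) did not pass either. Ccnd1 was called higher at 3000 UMIs per cell (0.23, edgeR adjusted p = 0.000946) and without lung metastasis replicate 4. Ccne1 was called higher in 4 of 15 alternatives, namely with at least 3 genes (1.24, edgeR adjusted p = 0.000343), with classes called after thinning, at 3000 UMIs and without primary tumor replicate 4. Ccnd2 was the member that fell, at 18.5, 28.8, 158.0 and 77.5 CPM in cycling cells and 59.3, 37.8, 185.2 and 93.9 CPM in non-cycling cells (-0.37 ± 0.09). It was lower in cycling cells of each library, and lost the call without either replicate 5 library, in members with exactly 2 genes, at 1000 UMIs, without thinning and by DESeq2.

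Among transcription factors of the cycle, 5 of 10 rose. Foxm1, which drives mitotic genes, was at 74.1, 25.7, 19.0 and 26.6 CPM in cycling cells and at 3.70, 6.68, 7.45 and 7.26 CPM in non-cycling cells, a log2 fold change of 1.77 ± 0.18. Mxd3 rose by 0.83 ± 0.14, though not in primary tumor replicate 4. Of 15 CDK inhibitors, pocket proteins and p53 targets, 2 rose, beside 4.18% of all genes tested, and none fell. These were Cdkn2d (0.43 ± 0.09) and the pocket protein Rbl1 (0.78 ± 0.25), the second named after its value was seen. Cdkn1a, the p53 target p21, had a log2 fold change of -0.21 ± 0.11, Cdkn1b 0.02 ± 0.09, Cdkn1c 0.39 ± 0.33 and Cdkn2c 0.07 ± 0.11, none of which passed. Cdkn2c was called higher with at least 3 genes, with classes called after thinning and with at least 4 genes, where its log2 fold change was 0.79 (edgeR adjusted p = 0.000773). Cdkn1a was called lower at 3000 UMIs and in cells with at least 5000 UMIs, where it was at -0.47. Myc (-0.10 ± 0.18) and Ret (-0.12 ± 0.15) did not pass. Reads were aligned to the mouse genome, so Ret stands for the mouse gene, and the ret transgene was not measured apart from it. None of the 16 ribosome biogenesis genes passed. That count lies near the 4.18% called higher and 2.66% called lower over all genes tested. Cdkn2d lost the call without either replicate 5 library, and its edgeR or DESeq2 adjusted p ran up to 0.971 over the alternatives. Mxd3 lost it without lung metastasis replicate 5.

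Pigment cell genes outside the rule were lower where they moved. Of 20 tested, 6 fell and none rose, with a median log2 fold change of -0.16. Tyr, the first enzyme of melanin synthesis, was at 518.5, 291.3, 376.9 and 150.3 CPM in cycling cells and 714.8, 328.5, 416.8 and 196.1 CPM in non-cycling cells of the same libraries. It was lower in cycling cells of each library, while the groups overlapped because libraries differed more than classes, and the log2 fold change was -0.33 ± 0.07. Ptgds, a prostaglandin synthase of melanocytes, fell by 0.56 ± 0.11. Mitf (-0.11 ± 0.08, adjusted p = 0.489) and Sox10 (-0.07 ± 0.07, adjusted p = 0.668), the factors that set melanocyte identity, did not pass, although Mitf was called lower at 3000 UMIs (-0.24, edgeR adjusted p = 0.00109). Of these 6, 1 also fell without primary tumor replicate 5 and 2 without lung metastasis replicate 5, with no other member falling there, and none fell by DESeq2 or in members with exactly 2 genes. Tyr itself did not pass without primary tumor replicate 5.

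Hypoxia and glycolysis genes gave 9 falls and no rise among 19 tested, with a median log2 fold change of -0.32. Vegfa, the angiogenic factor induced by low oxygen, was at 37.0, 37.1, 43.9 and 35.1 CPM in cycling cells and 63.0, 44.6, 59.0 and 60.8 CPM in non-cycling cells, and the groups did not overlap (-0.55 ± 0.11). Bnip3 fell by 0.49 ± 0.09. Of the 9, 1 also fell without primary tumor replicate 5, 5 without primary tumor replicate 4, 5 without lung metastasis replicate 5 and 1 in members with exactly 2 genes, and 2 by DESeq2, 2 at 1000 UMIs and 1 without thinning. In cells with at least 5000 UMIs 11 of 18 fell, 6 of them among the 9, and Vegfa did not pass. Vegfa also lost the call at 1000 UMIs, without thinning and without primary tumor replicate 5. Of 17 neural crest genes, the water channel gene Aqp1 (-1.28 ± 0.14) and the nuclear regulator Cited1 (-0.48 ± 0.09) fell, and the receptor Erbb3 rose (0.29 ± 0.08). In the MHC class I and interferon list 1 of 14 passed, H2-K1 at -0.24 ± 0.07. In the RET and MAPK list 1 of 15 passed, Etv1 at -0.24 ± 0.07. In the immediate early and heat shock list 1 of 14 passed, Hsp90aa1 at 0.23 ± 0.08. Over all genes tested 4.18% were called higher and 2.66% lower, so 1 call does not set a list of this size apart. Of 17 alternatives, Etv1, Hsp90aa1 and Erbb3 lost the call in 9 each and H2-K1 in 8, in each case also without either replicate 5 library, and H2-K1 without primary tumor replicate 4 as well. Of the markers of other cell types, only 2 leukocyte genes and Mgp passed the filter on low counts, and Mgp, of the fibroblast list, fell (-1.25 ± 0.21).

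Outside the lists, the largest rises with at least 20 CPM and the same direction in all 4 libraries were those of Depdc1a (2.20 ± 0.20), Arhgap11a (2.16 ± 0.21), Trip13 (1.64 ± 0.18), Dbf4 (1.48 ± 0.13), Trim59, Shcbp1, Lmnb1, Ulbp1, Incenp and Mns1, the last 6 between 1.22 and 1.31. Dbf4 activates the kinase that fires replication origins, Trip13 remodels the spindle checkpoint, Incenp anchors the Aurora B kinase and Lmnb1 is a lamin of the nuclear envelope. Dbf4 lost the call without thinning and by DESeq2, and Shcbp1 without thinning. In members with exactly 2 genes Shcbp1, Ulbp1 and Incenp lost it. The largest falls were those of the lncRNA Gm12688 (-0.93 ± 0.15), the nuclear lncRNA Malat1 (-0.93 ± 0.20), ceruloplasmin (Cp, -0.85 ± 0.12), Col2a1 (-0.77 ± 0.15), Plekhb1, Enpp2, Ndrg2, Fgl2, Tmem191c and the clock factor Dbp, the last 6 between -0.65 and -0.57. Malat1 was at 5111, 16661, 20264 and 19064 CPM in cycling cells and 19322, 25566, 22851 and 28712 CPM in non-cycling cells. It was lower in cycling cells of each library, by the most in lung metastasis replicate 4. Malat1 did not pass in cells with 4 or 5 genes or with exactly 2, without thinning, with classes called after thinning or by DESeq2. Cp, Col2a1, Plekhb1 and Ndrg2 did not pass without primary tumor replicate 5 or at 1000 UMIs per cell, and the highest adjusted p of Col2a1 over the edgeR and DESeq2 alternatives was 0.879.

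Promoter windows of the genes that rose held each of the 3 elements in a larger share than those of all genes tested. Of 10624 genes tested, 8432 had a RefSeq window of 250 bases before to 50 bases after a start. A CHR was found for 16.0% of these and for 42.8% of the 355 called higher with a window, 61.7% of the 120 that at least doubled, and 20.9% of the 211 called lower. For a CCAAT box the shares were 43.01%, 59.7%, 65.8% and 39.3% in the same order. Both elements were found for 6.67%, 29.0%, 44.2% and 5.21%, and an E2F site for 4.34%, 11.5%, 11.7% and 2.37%. Among G2/M genes 32 of 43 windows held a CHR and 2 an E2F site, whereas among S phase genes 6 of 31 held a CHR and 12 an E2F site. Over all 32851 windows of the table, 19.2% held a CHR, 37.4% a CCAAT box and 1.84% an E2F site. These are matches of letters, not sites shown to be bound, and the counts were not tested.

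Within the members, those with a UMI of Ccnb1 were set against those without, which splits them by a gene of the rule. The choice forces the second class to show at least 2 of the other 4 genes, while a positive cell needs 1, and the classes also differed in how many of the 5 genes they showed. At 2000 UMIs there were 13, 1070, 269 and 747 Ccnb1-positive and 14, 1340, 677 and 963 Ccnb1-negative cells in lung metastasis replicates 4 and 5 and primary tumor replicates 4 and 5, and before thinning the positive cells were deeper in all but the first of these. Of these cells 12, 668, 153 and 502 positive and 8, 294, 157 and 277 negative ones showed 3 or more of the 5 genes, so the split in part repeats the number of genes shown. With at least 3 genes required in both classes 32 genes passed in place of 127, and with at least 4 none did. Of 8954 genes tested, 120 were higher in Ccnb1-positive cells (1.34%) and 7 lower (0.0782%) by edgeR with the library as a block. G2/M genes rose in 42 of 48 cases (median log2 fold change 0.86) and kinesin and spindle genes in 25 of 28 (0.88), beside a median of -0.01 over all genes. Of S phase genes 0 of 39 passed, of replication fork genes 0 of 31 and of nucleotide synthesis genes 0 of 15, counts that lie near the 1.34% called higher over all genes, and 679 genes of all those tested had an unadjusted p below 0.05. The S phase median was -0.04.

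Aspm was at 192.3, 51.4, 74.3 and 54.2 CPM in Ccnb1-positive and 35.7, 21.3, 17.7 and 30.1 CPM in Ccnb1-negative cells of lung metastasis replicates 4 and 5 and primary tumor replicates 4 and 5 (log2 fold change 1.26 ± 0.17). Cdc20 was at 115.4, 157.9, 158.0 and 175.4 CPM against 71.4, 73.1, 87.9 and 88.3 CPM, without overlap (1.00 ± 0.10). Ccna2 rose by 0.93 ± 0.14 and Ccnb2 by 0.79 ± 0.09. The kinesin Kif18a (1.28 ± 0.31) and the spindle protein Ckap2l (1.12 ± 0.16), the checkpoint genes Nuf2 (1.08 ± 0.21) and Bub1b (1.07 ± 0.20) and the mitotic kinase Aurka (0.98 ± 0.22) rose as well. Outside the lists Mybl1 (1.63 ± 0.34), Depdc1a (1.29 ± 0.21), Prr11 (1.16 ± 0.29), Dbf4 and Shcbp1 rose, and Fam133b (-0.52 ± 0.15) was the only one named as lower. Of the 25 named genes called in this split, 13 lost the call without lung metastasis replicate 5, among them Kif18a, Nuf2, Bub1b, Aurka, Ccna2, Prr11 and Shcbp1. With at least 3 genes 12 of the 25 lost it, among them Ckap2l, Nuf2, Bub1b, Aurka and Shcbp1, and by DESeq2 9 did. Fam133b changed sign when cells were thinned to 1000 or 3000 UMIs. No pigment gene of 18 and no glycolysis gene of 19 passed, counts that lie near the 1.34% called higher and 0.0782% called lower over all genes. In cells with 4 or 5 genes 0 of 1559 genes passed by edgeR, with 84 at an unadjusted p below 0.05, and DESeq2 called 42 genes in the full split.

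The cycling fraction was compared between sites at equal depth, with the genes counted again after thinning to 2000 UMIs. It was 7.45% in lung metastasis replicate 4 (14 of 188 cells, exact 95% interval 4.13 to 12.2%) and 8.71% in lung metastasis replicate 5 (956 of 10973, 8.19 to 9.26%). It was 14.9% in primary tumor replicate 4 (622 of 4167, 13.9 to 16.0%) and 13.9% in primary tumor replicate 5 (803 of 5794, 13.0 to 14.8%). Both primary tumor libraries lay above both metastasis libraries. The means were 8.08 ± 0.895% (SD, n = 2) and 14.4 ± 0.755% (SD, n = 2), and an exact two-sided permutation test gave p = 0.333, the smallest that 2 against 2 libraries allow. Within replicate numbers the difference was -7.48 points for replicate 4 and -5.15 points for replicate 5, the pair from 1 mouse. In primary tumor replicate 4, 26161 shallow melanoma cells were left out by this depth. The intervals cover counting error only.

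At stricter limits the order did not hold for lung metastasis replicate 4, while lung metastasis replicate 5 stayed below both primary tumor libraries. With at least 3 genes the shares were 5.32% and 2.57% in the metastasis libraries and 3.74% and 4.26% in the primary tumor libraries, so that the sites overlapped. With 4 or 5 genes they were 3.72%, 0.674%, 0.864% and 0.897% in the same order, and the mean difference turned to 1.32 points, with 7 such cells of 188 in lung metastasis replicate 4. Within replicate numbers the difference with at least 3 genes was 1.58 points for replicate 4 and -1.69 points for replicate 5. With 4 or 5 genes it was 2.86 and -0.22 points. At the depth as deposited, without thinning, the shares were 10.9%, 21.6%, 12.8% and 28.1%, where the median UMIs of the melanoma cells were 4591, 4004, 1654 and 3664.

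**Figure D3:**
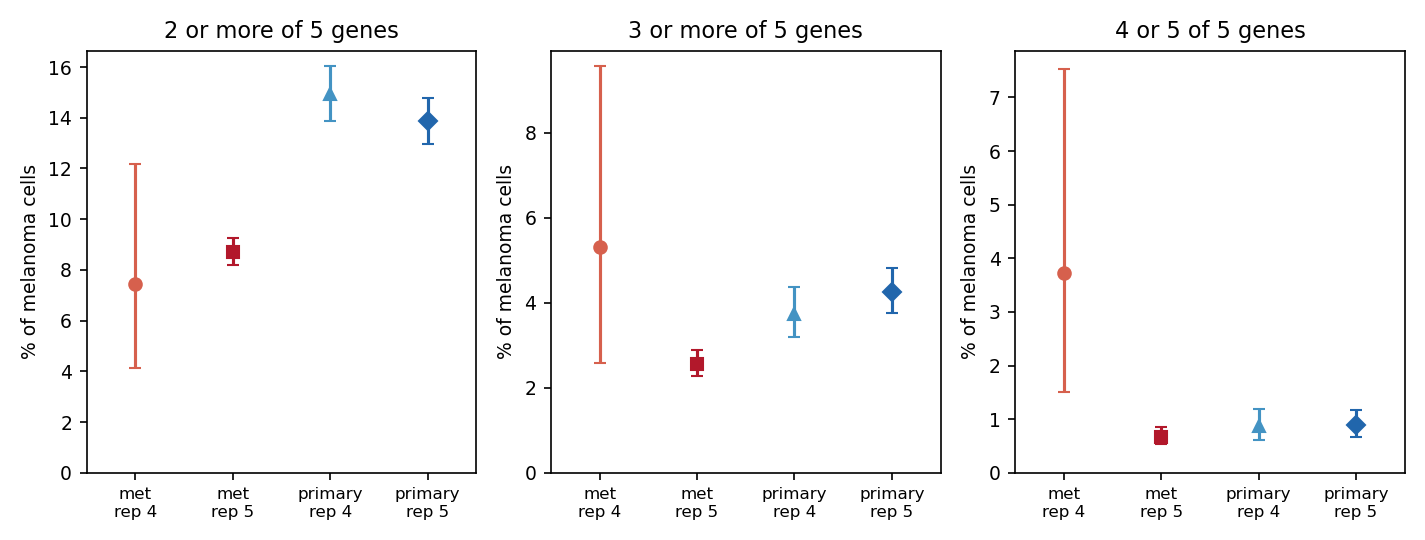
Percent of melanoma cells called cycling after thinning to 2000 UMIs per cell, with exact 95% intervals for counting error, at 3 limits on the number of the 5 genes, in lung metastasis (red) and primary tumor (blue) MM libraries. The sites are apart at 2 or more genes (7.45 and 8.71% against 14.9 and 13.9%) and overlap at the stricter limits.

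Cells that should not divide gave the background of the call. At 2000 UMIs, 2 or more of the genes were found in 2.00% of 150 neutrophils of primary tumor TME replicate 4 (median 2481.5 UMIs before thinning) and 1.03% of 195 ciliated cells of lung metastasis TME replicate 5 (median 4750.0). They were found in 0 of 791 neutrophils (median 3129), which allows a share of up to 0.379%, and in 0 of 425 ciliated cells (median 6435) of unchallenged lung replicate 5. In unchallenged lung replicate 6 they were found in 1.54% of 1233 neutrophils (median 2567) and 1.86% of 2475 ciliated cells (median 2932). Neutrophils of the MM libraries could be counted in lung metastasis replicate 4 alone, with 0 of 52 cells (median 4122.5), which allows up to 5.77%. The shares among melanoma cells of the MM libraries, 7.45 to 14.9% (medians 2341 to 6062 UMIs), lay above all of these shares. In lung metastasis replicate 4 the interval of 4.13 to 12.2% includes the 5.77% that its neutrophils allow, so the background there is not set apart. The other MM libraries had no such reference of their own.

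The order of UMIs per cell depended on the depth at which cells were called, and since a deeper cell is more likely to show 2 of the genes, the values are a description with no test. As called, the median UMIs of cycling cells were 7150.5, 4974, 1747 and 4495 in lung metastasis replicates 4 and 5 and primary tumor replicates 4 and 5, against 3858, 3763, 1624 and 3313.5 in non-cycling cells. The mean log2 ratio was 0.46 ± 0.32 (SD, n = 4), with factors of 1.08 to 1.85. With classes called after thinning it was -0.15 ± 0.25, and among cells with at least 5000 UMIs it was 0.02 ± 0.18. In members with 4 or 5 genes the factor over non-cycling cells was 1.36 to 3.38. Mitochondrial UMIs were at a median of 1.14 to 11.1% in cycling and 1.11 to 11.3% in non-cycling cells. In primary tumor replicate 4 members with 4 or 5 genes had a median of 6.08% mitochondrial UMIs, against 1.11% in non-cycling cells. Their ribosomal UMIs were at 5.50% against 8.63%. In the other libraries the mitochondrial median of such members was lower than in non-cycling cells.

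Between sites, few genes passed in cycling cells, of which Ccnd2 and Rpa3 belonged to the cell cycle lists. With edgeR on the 4 sums, 13 of 10315 genes were higher in lung metastasis (0.126%) and 24 were lower (0.233%). None of 50 G2/M, 43 S phase and 33 kinetochore genes passed, with medians of 0.03, -0.27 and -0.01 beside -0.04 over all genes, and 317 genes of all those tested had an unadjusted p below 0.05. Whether the response of genes to cycling differed between sites was tested by an interaction term, for which 0 of 10624 genes passed (0.0%) and 206 had an unadjusted p below 0.05. DESeq2 also gave 0, and edgeR without lung metastasis replicate 5 gave 62.

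Csn3, a casein, was at 0 and 10.6 CPM in cycling cells of lung metastasis replicates 4 and 5 and at 126.3 and 157.9 CPM in those of primary tumor replicates 4 and 5. Its libraries did not overlap, the log2 fold change was -3.80 ± 0.47 (edgeR adjusted p = 9.30e-12), and it passed under all 16 alternatives, of which those that leave out 1 library keep a single library at that site, assumed to vary like those of the other site. Ccnd2 was at 18.5 and 28.8 CPM in metastasis and 158.0 and 77.5 CPM in primary tumor (-2.10 ± 0.42). Cp (-2.39 ± 0.47), Nt5e (-2.20 ± 0.45), the serpin Serpina3n (-2.07 ± 0.41) and Shisa2 (-1.99 ± 0.46) were lower in metastasis as well. In non-cycling cells of the same libraries Ccnd2 was at 59.3 and 37.8 CPM in metastasis and 185.2 and 93.9 CPM in primary tumor. Cp was at 74.1 and 9.57 against 55.5 and 86.8 CPM in non-cycling cells, with overlap. Enpp2, called higher in metastasis in cycling cells, was at 403.7 and 165.1 against 43.5 and 38.3 CPM in non-cycling cells, without overlap. The difference between sites was not tested in non-cycling cells. Their values are not given for the other genes that passed between sites, so none is shown to be particular to cycling cells. Genes outside the lists, Csn3 among them, were named only where the libraries of the sites did not overlap. Their lack of overlap was therefore set by the choice, and the share of all genes without overlap is not given here. Higher in metastasis were Plagl1 (2.47 ± 0.44), Tspan10 (1.93 ± 0.40) and the lipid enzyme autotaxin Enpp2 (1.89 ± 0.38). So were the chaperone Hspb1 (1.61 ± 0.38), the receptor kinase Met (1.60 ± 0.37) and the melanocyte channel Trpm1 (1.62 ± 0.36). Tspan10 was at 18.5 and 56.02 CPM in metastasis and 15.33 and 11.99 CPM in primary tumor. In lung metastasis replicate 4 its level is that of 1 UMI, so its lack of overlap rests on that UMI. Ccnd2, Cp, Nt5e and Serpina3n were also at 18.5 CPM in that library, and Plagl1 at 37.04 CPM.

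Several calls rested on 1 library. Hspa1b was at 463.0 and 2.90 CPM in metastasis and 2.11 and 4.39 CPM in primary tumor, and Hspa1a at 425.9 and 6.02 against 6.87 and 9.94 CPM, so both were high in lung metastasis replicate 4 alone and turned to -0.21 and -0.49 without it. Rpa3 was at 18.5 and 5.60 against 50.2 and 8.77 CPM, with overlap, although it was called (-2.27 ± 0.53). With the replicate number as a block, 9 genes passed (2 higher, 7 lower), all among the 37. Of the 15 named genes that passed without it, 10 lost the call, namely Ccnd2, Rpa3, Nt5e, Shisa2, Plagl1, Tspan10, Hspb1, Met, Trpm1 and Hspa1a. Without lung metastasis replicate 5, 11 of the 15 lost it, without primary tumor replicate 4 13 and without primary tumor replicate 5 10, in fits where the other site alone gives the spread. Leaving out lung metastasis replicate 4 or 5 or primary tumor replicate 4 or 5 gave 81, 20, 4 and 9 genes, and DESeq2 gave 1. Site cannot be told apart from mouse for replicate 4.

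**Figure D4:**
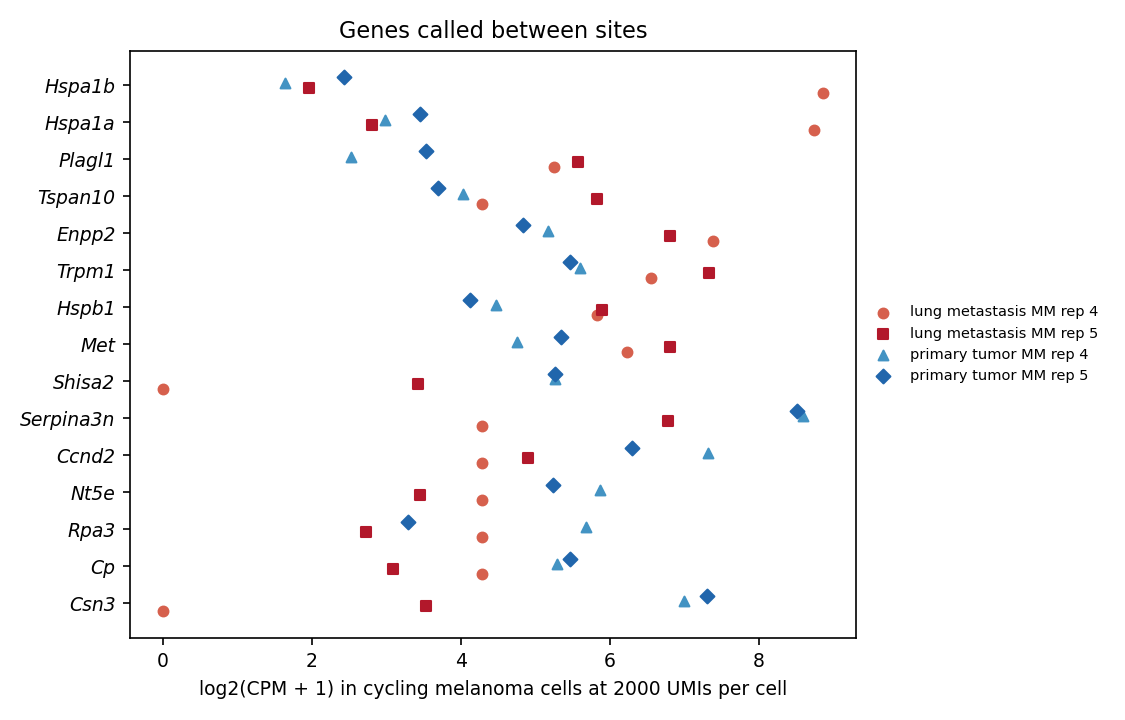
Level, as log2(CPM + 1) after thinning to 2000 UMIs per cell, of the named genes that passed between sites in cycling melanoma cells, with 1 point per MM library. Csn3 lies at 0 and 10.6 CPM in metastasis and 126.3 and 157.9 CPM in primary tumor, and the heat shock genes Hspa1a and Hspa1b are high in lung metastasis replicate 4 only.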

How the data were processed

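RNA of single cells from sorted MM cells of mouse tumors was measured. The counts deposited by the authors are UMIs per gene and cell, not normalized. The submitters' processing notes name Cell Ranger 6.1.1, GRCm38 and Seurat 3.2.2, and cells had been dropped at quantiles of detected genes and of ribosomal and mitochondrial shares. Of 24 library names 13 were used and 11 were not. The MM library identical to a TME library was left out, and several TME libraries, also deposited under a second name with another mouse, were used once, under a single name, so which mouse they came from is not certain. Members and gene lists were chosen with earlier results of these data known, and the limits of 4 genes, 5000 UMIs and exactly 2 genes were added after the data were examined. Each cell was thinned without replacement to 2000 UMIs, dropping shallower cells. Sums of counts by library and class entered edgeR 4.0.16 in R 4.3.3, with filterByExpr, TMM factors, its quasi-likelihood F test and Benjamini-Hochberg adjustment over all genes tested. DESeq2 1.42.0 was the alternative. The SE of an edgeR fold change was computed as its absolute log2 value divided by the square root of F. The fits were tested on simulated data. Libraries are the replicates (n = 2 per site), and labels do not say how far their spread is technical. Single values of libraries were tested two-sided by exact permutation or sign flips. CPM are per 1000000 summed counts, and ratios per library used a pseudocount of 1 CPM. Intervals are exact (Clopper-Pearson) at 95%, and the share allowed by 0 is 3 counts.

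In each list, the 2 largest called rises and the 2 largest called falls with a mean of at least 20 CPM were named, and also cyclins, CDK inhibitors, Mitf, Sox10, Tyr, Myc and Ret. Outside the lists the 10 largest in either direction with the same sign in all 4 libraries were named, and 5 between sites, without overlap. For Ccnb1 at most 5 in either direction were named, and the CPM of Mybl1, Depdc1a, Prr11 and Dbf4 overlapped between the classes. Neutrophils had at least 1% of UMIs in S100a8 and S100a9, ciliated cells at least 3 of Tmem212, Ccdc153, Sec14l3 and Dynlrb2, and a cell type was used at 50 cells or more. Of 32285 genes, list symbols were matched by name, and Ca9 was the only one not found. Alternatives were thinning to 1000 or 3000 UMIs or none, DESeq2, RLE factors, no filter, pigment genes at 1%, at least 3 genes, no cells with Ptprc, Col1a1 or Pecam1, classes called after thinning, each library left out, and a replicate block. The correlation of deviations of same-numbered libraries was 0.09 over 6057 genes. Tables and plots came from Python 3.11.15, with pandas 2.3.3, numpy 2.4.6, matplotlib 3.10.9 and scipy 1.17.1.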

Additional observations from a re-analysis of the deposited data

Results flagged for a closer look

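In lung metastasis MM replicate 4, with 27 cycling cells at 2000 UMIs, the log2 ratio of the summed S phase list from non-cycling to cycling cells was 2.60, far from 0.28 to 0.62 in the other 3 libraries, and that of the summed pigment list was -0.68, against -0.12 to -0.09. Of 8 values tested in this way 2 stood apart, where chance puts about 1 in 20 apart. This library lay farthest from the others in all 8, which share its cells, and 3 more came just under the limit. These were the log2 ratios of the summed G2/M list (3.00, against 0.71 to 1.18), of ribosome biogenesis genes (0.60, against -0.02 to 0.10) and of immediate early and heat shock genes (0.79, against -0.08 to 0.09).

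For 4 of 66 named genes, cycling cells lay above non-cycling cells in both lung metastasis libraries and below them in both primary tumor libraries. The mean log2 ratio in metastasis minus that in primary tumor was 0.43 for Ccnd3, 0.15 for Mitf, 0.49 for Sox10 and 0.44 for Ret. The interaction term passed for none of them, and 0 of 10624 genes passed it. Over all 10624 genes tested, 342 had the same pattern and 525 the opposite one, together 8.16%.

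Barcodes that met the pigment limit were also present in TME libraries, which were sorted for tdTomato+ host cells. In lung metastasis TME replicate 5, which carries the same mouse number as MM replicate 5 but was deposited a second time under another mouse, 4028 barcodes met it, 505 of them with 2 or more of the 5 genes as deposited. At 2000 UMIs 7.59% (216 of 2845) were cycling, beside 8.71% in the MM library. In the cycling barcodes of that TME library the summed lung epithelium markers were at 3899.6 CPM, against 4.15 CPM in the MM library, and 12.4% had a UMI of Ptprc, Col1a1 or Pecam1. In primary tumor TME replicate 4 the cycling share was 11.2% (16 of 143) and in primary tumor TME replicate 6 it was 12.8% (15 of 117), where 77.8% of the barcodes had a host gene. In lung metastasis TME replicate 6 it was 1.54% (2 of 130, exact 95% interval 0.187 to 5.45%), beside shares of up to 2.00% in neutrophils and ciliated cells, also at 2000 UMIs. In the other 2 TME libraries 2 of 24 and 1 of 4 barcodes were cycling.

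Cells of the MM libraries under the pigment limit showed 2 or more of the genes in 6.13% (16 of 261) in lung metastasis replicate 4, 5.63% (4 of 71) in primary tumor replicate 4 and 8.24% (7 of 85) in primary tumor replicate 5. The shares in neutrophils and ciliated cells were at most 2.00%.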

How the results depend on the processing

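At most 7 of the genes called for cycling changed sign under any alternative, while counts moved. The 727 genes called for cycling became 171 (143 higher, 28 lower) at 1000 UMIs, 1302 (743, 559) at 3000, 158 (138, 20) without thinning, 170 (143, 27) by DESeq2, 840 (452, 388) by RLE factors, 875 (436, 439) in cells with at least 5000 UMIs and 146 (117, 29) with exactly 2 genes, and 229 to 1019 when 1 library was left out. The share that was higher moved from 61.1% to between 49.8% and 88.6%. Of the 50 G2/M genes, 30 rose by DESeq2 and 33 without thinning. The interaction gave 27 genes at 1000 UMIs, 3 with pigment genes at 1%, and 1 each without host-marked cells, with classes called after thinning, at 5000 UMIs, by RLE factors and with the replicate block, and 0 to 62 when 1 library was left out. The site comparison gave 37 genes in the main analysis, 1 at 1000 UMIs, 72 at 3000, 22 without thinning, 19 with pigment genes at 1%, 22 with at least 3 genes, 1 with at least 4, 23 at 5000 UMIs, 1 by DESeq2, 9 with the replicate block, and 4 to 81 when 1 library was left out. The Ccnb1 split gave 127, then 47 at 1000 UMIs, 203 at 3000, 281 without thinning, 32 with at least 3 genes, 0 with at least 4, 42 by DESeq2, and 47 to 143 when 1 library was left out. The cause of these changes was not tested.

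Reversed were the site difference of the cycling share with 4 or 5 genes (1.32 points), the UMI ratio with classes called after thinning (-0.15), Hspa1b and Hspa1a with pigment genes at 1% (-0.0884 and -0.75) or without lung metastasis replicate 4 (-0.21 and -0.49; 6.66 and 5.24 without lung metastasis replicate 5), and Fam133b at 1000 and 3000 UMIs (0.0411 and 0.0338). For the share difference, leaving out 1 library gave -6.95 to -5.68 points, and for the UMI ratio 0.32 to 0.58. With the replicate block, by exact sign flips, the share difference was -6.31 points with p = 0.5, the smallest that flips of 2 differences allow. Of single gene values for cycling, 963 kept their side of the threshold, 125 lost the call and 12 gained it. Of 54 named genes called for cycling, 26 lost the call by DESeq2, 26 without thinning, 20 with exactly 2 genes and 17 at 1000 UMIs. Of 15 called between sites, 14 lost it by DESeq2 and 14 at 1000 UMIs.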
